A study of Mus musculus with 8 samples.

Results

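The 246 genes described here are microRNA genes with signal in RNA-seq of mouse spinal cord. They were the rows whose gene symbol begins with Mir and a digit, or with Mirlet, and that reached 1 RPKM (reads scaled for gene length and for the reads of the library) in 2 or more of 8 libraries. The tables held 622 rows with such symbols among 23278 gene symbols. Of the others, 169 rows were at 0 in all libraries, 204 were above 0 but under the threshold, and 3 passed it but were left out by the rule that defined the group. Since the rule used the measured level, the levels are given as a description. Just inside the threshold lay Mir107, Mir30a and Mir148b, whose second-highest library had 1.01, 1.02 and 1.02 RPKM. Just outside lay Mir3081, Mir7b and Mir344, with 0.985, 0.984 and 0.979 RPKM. Of the members, 105 reached 5 RPKM in 2 libraries or more.

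The libraries came from FVB/N mice at postnatal day 1. Frozen 8 μm sections of lumbar spinal cord were stained with hematoxylin, and ventral horn motor neurons (MN) or the surrounding white matter (WM) were cut out by laser. There were 4 groups with 2 libraries each: SMA motor neurons, WT motor neurons, SMA white matter and WT white matter. The SMA mice model spinal muscular atrophy, in which a shortage of SMN, the survival motor neuron protein, kills motor neurons. Their genotype was SMN2+/+;SMNΔ7+/+;Smn-/-, so both human SMN transgenes were present and mouse Smn was missing, while the controls were labelled WT. The capture was chosen by staining and position, not by a marker gene. The labels do not say how many animals a library holds. Xist, the transcript of the inactive X chromosome, had 12.6 to 37.0 RPKM in replicate 1 and at most 0.0581 RPKM in replicate 2 of every group, so the 2 libraries of a group did not come from one and the same animal, and the replicate number goes with the Xist level. Of the members, 7 lie on the X chromosome.

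MicroRNA genes are transcribed as long primary transcripts, often inside the introns or exons of other genes. The Drosha and Dgcr8 complex cuts out a hairpin, Dicer1 trims it, and an Argonaute protein carries the short mature strand, whose seed pairs with target messages. Some microRNAs mark cell types of the spinal cord: miR-218 is abundant in motor neurons, miR-124 in neurons at large, and miR-219 and miR-338 promote the maturation of oligodendrocytes, the cells that make myelin. Per the protocol in the labels, cDNA fragments of 150 to 300 bp were kept. A hairpin row spanned a median of 82 bases (range 49 to 124 bases), so a fragment of that size is longer than the hairpin it overlaps. The values at these rows may therefore hold reads of host or primary transcripts, and nothing here measures mature microRNA.

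The sequences of the mature microRNAs that the results turn on are given first, 5′ to 3′, with the seed (bases 2 to 8) in capitals. The sequences come from RefSeq (GRCm38.p6), which held 382 mature sequences for 232 of the 246 genes. The first set belongs to genes that were higher in motor neurons of at least 1 genotype.
mmu-miR-218-5p (Mir218-1 and Mir218-2): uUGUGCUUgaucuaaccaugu
mmu-miR-134-5p (Mir134): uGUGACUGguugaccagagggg
mmu-miR-154-5p (Mir154): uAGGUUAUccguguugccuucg
mmu-miR-666-5p (Mir666): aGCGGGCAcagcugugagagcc
mmu-miR-1903 (Mir1903): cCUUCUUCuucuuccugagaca

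The second set belongs to genes that were higher in white matter of at least 1 genotype, except Mir9-3, which carries the same mature strand as Mir9-1 and Mir9-2, and Mir5114. Neither of these passed in either genotype. Mir682 and Mir5114, the last 2, are the members with the most signal.
mmu-miR-219a-5p (Mir219-2): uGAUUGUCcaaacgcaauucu
mmu-miR-338-3p (Mir338): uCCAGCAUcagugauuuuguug
mmu-miR-3065-5p (Mir3065): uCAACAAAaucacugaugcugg
mmu-miR-1897-3p (Mir1897): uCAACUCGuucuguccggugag
mmu-miR-675-5p (Mir675): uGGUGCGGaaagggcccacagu
mmu-miR-9-5p (Mir9-1, Mir9-2 and Mir9-3): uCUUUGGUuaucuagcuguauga
mmu-miR-682 (Mir682): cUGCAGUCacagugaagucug
mmu-miR-5114 (Mir5114): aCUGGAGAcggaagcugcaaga

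The third set belongs to members with the smallest unadjusted p for SMA against WT, none of which passed the test, beside relatives that share a seed: Mir100 and Mir99a share ACCCGUA, and Mirlet7e and the let-7c genes share GAGGUAG.
mmu-miR-344-5p (Mir344-2): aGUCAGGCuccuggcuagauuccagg
mmu-miR-23b-5p (Mir23b): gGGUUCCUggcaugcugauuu
mmu-miR-100-5p (Mir100): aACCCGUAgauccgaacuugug
mmu-miR-99a-5p (Mir99a): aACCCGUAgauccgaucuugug
mmu-let-7e-5p (Mirlet7e): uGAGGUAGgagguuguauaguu
mmu-let-7c-5p (Mirlet7c-1 and Mirlet7c-2): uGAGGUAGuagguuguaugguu
mmu-miR-433-5p (Mir433): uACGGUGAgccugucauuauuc
mmu-miR-487b-5p (Mir487b): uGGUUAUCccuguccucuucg

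Among all members, 28 seeds were held by at least 2 genes. The largest of these groups were the miR-181 seed ACAUUCA (5 genes), the let-7 seed GAGGUAG (5 genes) and the miR-344 seed GUCAGGC (4 genes). Mir9-1, Mir9-2 and Mir9-3 lie in different places and carry the same mature strands. Where 2 member hairpins overlap, their values share reads and are uncertain as separate genes: this held for Mir136 and Mir3071, Mir1a-2 and Mir1b, Mir24-2 and Mir3074-2, Mir338 and Mir3065, and Mir374 and Mir374c.

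Markers of motor neurons and of oligodendrocytes differed between the captures in the direction of the labels. Summed over 6 motor neuron markers, SMA motor neurons had 408 and 420.5 RPKM and WT motor neurons 466 and 493 RPKM, against 14.6 and 4.92 RPKM in SMA white matter and 6.26 and 4.75 RPKM in WT white matter. All 6 oligodendrocyte markers ran the other way in both genotypes. Their sums were 111 and 77.6 RPKM in SMA motor neurons and 62.6 and 39.5 RPKM in WT motor neurons, against 4452 and 2272 RPKM in SMA white matter and 3543 and 1699 RPKM in WT white matter. Mouse Smn1 was at 0 in all SMA libraries and averaged 4.88 ± 2.75 RPKM in WT motor neurons and 9.81 ± 6.38 RPKM in WT white matter (SD, n = 2 each). Scaling totals worked out from the RPKM steps were 77514224 to 102848263 reads per library, and 1 read in 80 bases was worth 0.122 to 0.161 RPKM. Skeletal muscle markers summed to 185 RPKM in SMA white matter replicate 2 and to 2.82 to 19.5 RPKM in the other libraries, and red blood cell markers to 3426 RPKM there and to 163 to 1361 RPKM elsewhere.

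Signal at the microRNA genes was sparse and uneven. The median member had 11 reads in a library and 139 reads over all 8 libraries. Only 78 members were above 0 in every library, 54 reached 1 RPKM in exactly 2, and 176 averaged under 5 RPKM. Across libraries, 41 to 83 members were at 0. Replicates of one group agreed less over the members than over all genes tested: across genes, the correlation of log2(RPKM + 1) between replicates was 0.685 to 0.810 over the 246 members and 0.889 to 0.963 over 13948 genes. It was lowest in SMA motor neurons in both sets.

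The highest values stood at hairpins inside exons of other transcripts. Mir682, which overlaps an annotated processed pseudogene (Gm4149), alone took 53.7% of all member reads, and together with Mir5114 66.4%. It had 1421 and 1716 RPKM in SMA motor neurons, 1358 and 1378 RPKM in WT motor neurons, 3735 and 3668 RPKM in SMA white matter, and 3459.7 and 2475 RPKM in WT white matter. Every white matter library exceeded every motor neuron library. Pseudogenes share sequence with their parent genes, and how multiply matching reads were handled is not given in the sources used here, so this row is uncertain.

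Mir5114, in a coding exon of Scd2 (stearoyl-CoA desaturase, a lipid enzyme of brain and myelin), had 1252 and 548 RPKM in SMA motor neurons and 924 and 849 RPKM in WT motor neurons. In white matter it had 1437 and 701 RPKM in SMA and 849 and 758 RPKM in WT. The groups overlapped throughout. Next came Mir546 in the 3′ UTR of Ctdsp2 (mean over 8 libraries 143 RPKM) and Mir686 in a coding exon of Psmb5, a proteasome subunit (128 RPKM). Mir134, in an exon of the long non-coding RNA Mirg, averaged 74.4 RPKM. Mir1906-1, in an exon of Meg3, averaged 69.7 RPKM. Mir1906-2 on the X chromosome had identical values to Mir1906-1 in all libraries and is not a separate measurement.

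By position on the annotation, 100 members lay in an exon of another gene on the same strand, 85 in an intron, 20 opposite a gene on the other strand and 38 between genes, and 3 could not be placed. Of the 23 members that averaged at least 20 RPKM, 22 were exonic and 1 intronic. The median of the members' mean level was 4.19 RPKM for exonic, 1.57 RPKM for intronic, 2.63 RPKM for antisense and 1.82 RPKM for intergenic members. The ranges overlapped widely, from 0.482 to 2401 RPKM among exonic and from 0.375 to 22.9 RPKM among intronic members.

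**Figure D1:**
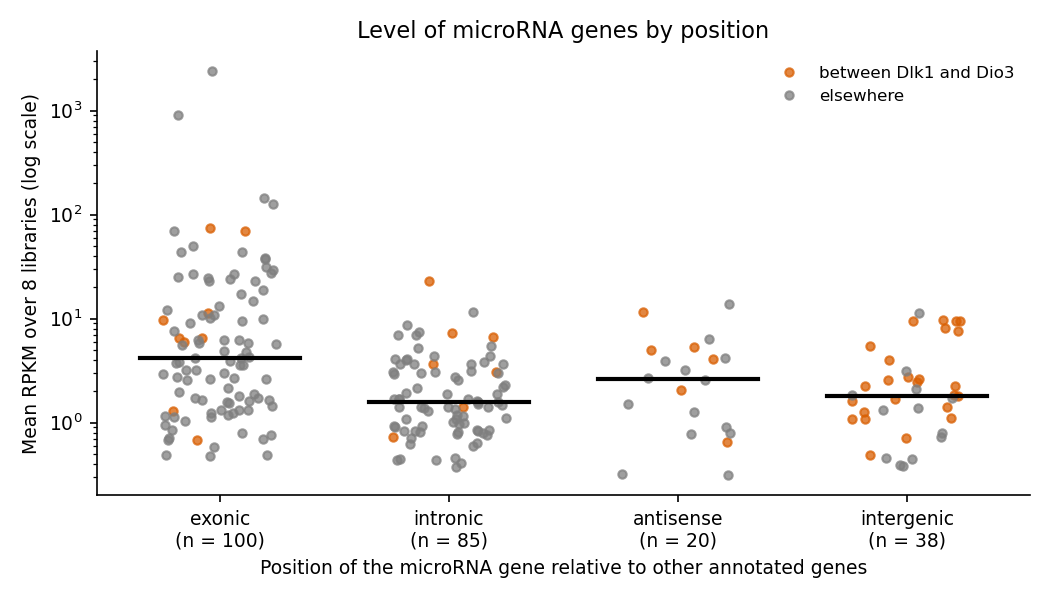
Mean RPKM over 8 libraries (log scale) of the members in 4 position classes, 1 point per gene, with a bar at each class median. The medians run from 1.57 RPKM (intronic) to 4.19 RPKM (exonic), and the 4 genes above 100 RPKM are all exonic.

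The comparison of motor neurons with white matter asks which of these rows mark one region. The test was limma's moderated test on log2(RPKM + 1) over all 13948 genes that passed the same level filter, two-sided, with Benjamini-Hochberg adjustment and a threshold of 0.05. In SMA mice 63 members passed, 30 higher and 33 lower in motor neurons. In WT mice 63 members passed as well, 44 higher and 19 lower. The background share of all genes called was 30.8% in SMA (13.6% higher, 17.2% lower) and 28.4% in WT (18.6% higher, 9.85% lower), against 25.6% of the members in both genotypes. The members were thus called about as often as other genes, and the results below are about which members were called. A gene could reach the level threshold through 1 region alone, and for such genes the difference between regions is a description. The counts of all genes depended on scaling: the median difference over all genes in SMA was −0.235 on the log2(RPKM + 1) scale and −0.071 after median-of-ratios scaling. The differences in SMA given below are not corrected for this median and are to be read beside it. The split of all genes was 1897 higher and 2398 lower in SMA and 2593 higher and 1374 lower in WT, and with that scaling 2372 higher and 2037 lower in SMA and 2354 higher and 1883 lower in WT. The members' split was then 31 higher and 27 lower in SMA and 39 higher and 23 lower in WT. One library could decide these counts: 38 members were called in SMA without SMA white matter replicate 2, and in WT 34 without WT white matter replicate 2 and 37 without WT motor neuron replicate 2. Single calls moved as well: of the 63 calls in each genotype, 24 held under all 14 alternative settings and 39 were lost under at least 1, in SMA as in WT. A difference between regions can come from fewer cells of a type or from less RNA per cell, which cannot be told apart here.

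The genotypes shared 33 calls of matching sign and 0 of opposite sign. Motor neurons were higher for 21 of these members, 15 of them between Dlk1 and Dio3 and 6 elsewhere, and lower for 12. The 6 include Mir1906-2, whose values repeat those of Mir1906-1 among the 15. The 12 include Mir338 and Mir3065, which share reads, so the calls are not all separate measurements. The 33 made up 52.4% of the SMA calls and 52.4% of the WT calls. Over all genes the shared calls were 66.7% of the SMA calls and 72.2% of the WT calls. The signs of the differences matched in 180 of 246 members. Whether a difference changed between the genotypes was tested as the interaction described further on, where 0 members were called.

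**Figure D2:**
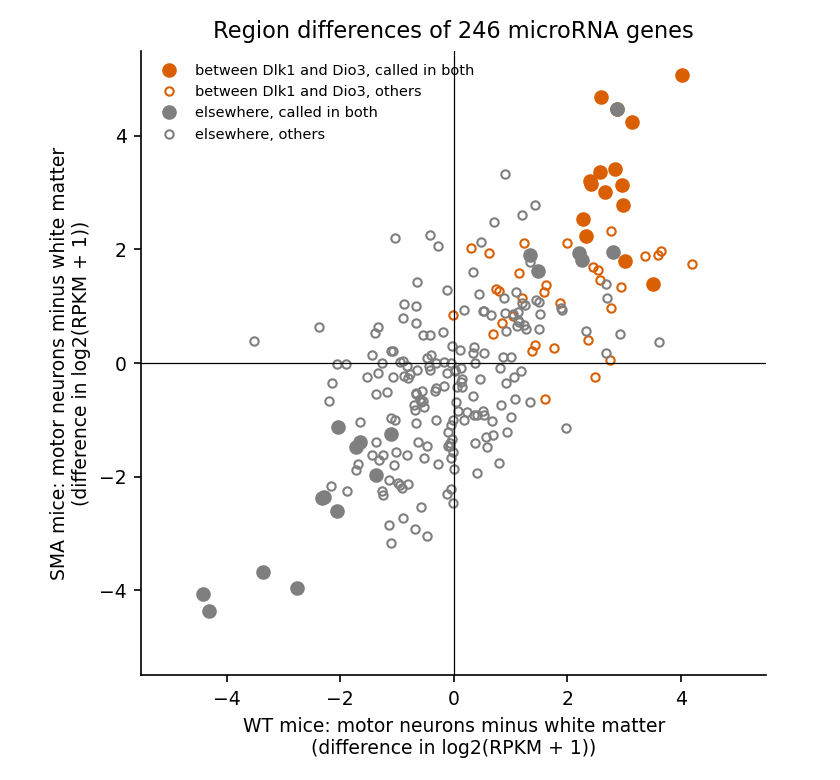
Difference between motor neurons and white matter in log2(RPKM + 1) for 246 members, SMA mice on the vertical and WT mice on the horizontal axis, with filled points for members called in both. Members between Dlk1 and Dio3 crowd the upper right, where motor neurons are higher in both genotypes, and the lowest points at the lower left are Mir219-2 and Mir1897.

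Neuronal microRNA genes differed among themselves. Of the 12 members of a list of 24 neuronal microRNA genes in the tables, 2 were higher and 2 lower in motor neurons of SMA mice, and 3 were higher and 0 lower in WT mice. That is 33.3% called in SMA and 25% in WT, against 30.8% and 28.4% of all genes. The genes higher in WT were Mir218-1, Mir218-2 and Mir124a-2, and the last 2 were also the ones higher in SMA. The genes lower in SMA were Mir9-1 and Mir9-2. With quantile normalization it was 3 higher and 2 lower in SMA, and 4 higher and 1 lower in WT. The 12 others of the list, among them Mir132 and Mir137, did not reach the level threshold. Markers of another neuron type moved with region too: 6 spinal interneuron markers summed to 69.9 and 71.6 RPKM in SMA motor neurons and 62.0 and 38.6 RPKM in WT motor neurons, against 11.5 and 11.1 RPKM in SMA white matter and 10.7 and 3.58 RPKM in WT white matter. Of these 6 markers, 5 were higher in motor neurons of SMA mice and 4 of WT mice, and their part in the neuronal microRNA values and in those of the Dlk1-Dio3 region was not tested.

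Mir218-2, in an intron of the axon guidance gene Slit3, had 2.89 and 2.76 RPKM in SMA motor neurons and 3.69 and 3.52 RPKM in WT motor neurons. All 4 white matter libraries were at 0. With a floor of 3 reads per library, the mean level was at least 10.3-fold higher in motor neurons than in white matter of SMA mice. In WT mice it was at least 12.1-fold higher (limma adjusted p = 0.00198 in SMA and 0.000846 in WT). Mir218-2 reached the level threshold through motor neurons alone, so these values are a description. The motor neuron values did not overlap between genotypes, but the difference of −0.27 ± 0.31 (SE) on the log2(RPKM + 1) scale between SMA and WT did not pass (limma adjusted p = 1).

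Mir218-1, in an intron of Slit2, had 5.79 and 5.85 RPKM in SMA motor neurons and 12.4 and 12.1 RPKM in WT motor neurons. White matter had 0.376 and 3.89 RPKM in SMA and 3.24 and 0 RPKM in WT. All 4 motor neuron libraries lay above all 4 white matter libraries. The difference between regions was 1.39 ± 0.71 in SMA (limma adjusted p = 0.16, not past the threshold) and 2.68 ± 0.71 in WT (limma adjusted p = 0.0189). The WT call was lost under 5 of 14 settings: with no filter, with a pseudocount of 0.1 RPKM, and without WT motor neuron replicate 1, WT motor neuron replicate 2 or WT white matter replicate 2 (limma adjusted p = 0.0974, 0.0917 and 0.157 without these libraries). Both host genes passed the test as higher in motor neurons of both genotypes, Slit2 in SMA not without SMA white matter replicate 2 (limma adjusted p = 0.0793). Slit3 averaged 28.3 ± 6.40 RPKM in SMA motor neurons and 47.4 ± 1.56 RPKM in WT motor neurons, against 3.53 ± 3.06 RPKM in SMA white matter and 1.51 ± 1.50 RPKM in WT white matter (SD, n = 2 each). Slit2 averaged 24.9 ± 18.3 RPKM in SMA motor neurons and 43.6 ± 1.25 RPKM in WT motor neurons, against 4.84 ± 1.13 RPKM in SMA white matter and 4.60 ± 0.0111 RPKM in WT white matter.

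Mir124a-2 lies in an exon of the non-coding gene 2610100L16Rik. It had 6.74 and 8.35 RPKM in SMA motor neurons and 6.05 and 7.81 RPKM in WT motor neurons, against 0.664 and 2.50 RPKM in SMA white matter and 1.48 and 0.0949 RPKM in WT white matter. No motor neuron library overlapped with a white matter library, and the differences were 1.82 ± 0.49 in SMA and 2.26 ± 0.49 in WT (limma adjusted p = 0.0206 in SMA and 0.00762 in WT). The SMA call was lost under 5 of 14 settings, among them without SMA motor neuron replicate 2 (limma adjusted p = 0.0506) and without SMA white matter replicate 1 (limma adjusted p = 0.155). In WT it did not pass when replicate 2 of either region was left out (limma adjusted p = 0.0641 without the motor neuron library and 0.0774 without the white matter library). Mir9-1 belongs to a family made by neural progenitors as well as neurons. It had 1.10 and 0.409 RPKM in SMA motor neurons and 0.741 and 3.91 RPKM in WT motor neurons, against 4.64 and 12.0 RPKM in SMA white matter and 6.59 and 5.34 RPKM in WT white matter. Its white matter libraries were all higher, with differences of −2.32 ± 0.56 in SMA (limma adjusted p = 0.0128) and −1.25 ± 0.56 in WT (limma adjusted p = 0.126, not past the threshold). Without SMA white matter replicate 2, neither Mir9-1 nor Mir9-2 passed in SMA (limma adjusted p = 0.108 and 0.063). Mir153, the remaining member of the 4 with the highest mean, rested on 1 library: it had 30.2 RPKM in SMA motor neuron replicate 1 and 0 to 1.68 RPKM elsewhere.

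The imprinted region between Dlk1 and Dio3 on chromosome 12, where a maternally expressed cluster of non-coding RNAs carries many brain microRNAs, held 47 members. A list of such genes named 48 in the tables, of which 41 were members. Of the 47, 16 were called higher and 0 lower in motor neurons of SMA mice, and 27 higher and 0 lower in WT mice. That is 34.0% called in SMA and 57.4% in WT, against 30.8% and 28.4% of all genes. Of all genes, 13.6% in SMA and 18.6% in WT were called higher. The sign was positive for 45 of 47 in SMA and 46 of 47 in WT, with median differences of 1.69 in SMA and 2.42 in WT on the log2(RPKM + 1) scale. Over all genes tested the medians were −0.235 in SMA and 0.079 in WT. A gene could reach the level threshold through motor neurons alone, so these counts are a description. The 199 members elsewhere had 14 higher and 33 lower calls in SMA and 17 higher and 19 lower in WT (23.6% called in SMA and 18.1% in WT). The higher calls elsewhere include Mir1906-2, whose values repeat those of Mir1906-1.

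These genes lie close together and share transcripts, so they are not independent measurements. Quantile normalization gave 18 higher calls in SMA and 27 in WT, and again 0 lower. Their RPKM summed to 523 and 730.3 in SMA motor neurons and 640.4 and 678 in WT motor neurons, against 28.8 and 81.5 in SMA white matter and 87.7 and 52.8 in WT white matter. Mir134, a neuronal microRNA that acts on dendritic spines, had the highest mean among them. It had 146 and 142 RPKM in SMA motor neurons and 122 and 156 RPKM in WT motor neurons, against 0.582 and 10.5 RPKM in SMA white matter and 3.40 and 15.7 RPKM in WT white matter. The region differences were 5.08 ± 0.83 in SMA and 4.02 ± 0.83 in WT (limma adjusted p = 0.00199 in SMA and 0.00589 in WT). The WT call was just lost without WT motor neuron replicate 2 (limma adjusted p = 0.0502) or WT white matter replicate 1 (limma adjusted p = 0.0538).

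Its host Mirg was far lower per length, at 5.87 ± 1.02 RPKM in SMA motor neurons and 7.66 ± 1.48 RPKM in WT motor neurons, against 0.315 ± 0.243 RPKM in SMA white matter and 1.83 ± 0.0671 RPKM in WT white matter (SD, n = 2 each). The hairpin and its host thus differed between regions in the same direction at different levels. Mir1188, in an intron of the non-coding RNA Rian, had 55.3 and 18.5 RPKM in SMA motor neurons and 57.4 and 40.5 RPKM in WT motor neurons. White matter had 1.81 and 0.0810 RPKM in SMA and 3.07 and 6.63 RPKM in WT. Mir666 had 5.81 and 10.4 RPKM in SMA motor neurons and 12.1 and 3.65 RPKM in WT motor neurons, and 0 in all 4 white matter libraries, so it was at least 26.7-fold higher in SMA and at least 23.8-fold higher in WT. Mir154, in an intron of Mirg, had 6.12 and 8.09 RPKM in SMA motor neurons and 13.3 and 26.2 RPKM in WT motor neurons, against 0 in both SMA white matter libraries and 1.05 and 3.76 RPKM in WT white matter. It was at least 15.6-fold higher in motor neurons of SMA mice, and the difference in WT was 2.66 ± 0.47 (limma adjusted p = 0.00169 in SMA and 0.00275 in WT). Mir667 passed with 1.40 ± 0.44 in SMA and 3.51 ± 0.44 in WT, and its difference of differences of −2.11 ± 0.63 did not (limma adjusted p = 0.0391 in SMA, 0.000454 in WT and 0.883 for the interaction). Its SMA call was lost under 9 of 14 settings, among them the replicate block (limma adjusted p = 0.054), a pseudocount of 0.1 RPKM (0.254) and leaving out SMA motor neuron replicate 2, either SMA white matter library or either WT motor neuron library (0.0649 to 0.151), and its WT call under none. The 2 members with a negative difference in SMA were Mir380 and Mir381, which did not pass.

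Most oligodendrocyte microRNA genes were higher in white matter. Of 5 members among 10 listed genes in the tables, 3 were lower and 1 higher in motor neurons of SMA mice, and 4 lower and 0 higher in WT mice. That is 80% called in each genotype, against 30.8% of all genes in SMA and 28.4% in WT. A gene could reach the level threshold through white matter alone, and Mir338 and Mir3065 share reads, so these counts are a description. The 3 lower in both genotypes were Mir219-2, Mir338 and Mir3065. Mir23b, called higher in SMA, is described further on, and that call was lost without SMA motor neuron replicate 2 (limma adjusted p = 0.0542) or SMA white matter replicate 2 (limma adjusted p = 0.0891). Mir24-2, whose hairpin overlaps Mir3074-2, was called lower in WT: it had 1.49 and 0 RPKM in SMA motor neurons and 0 and 0.121 RPKM in WT motor neurons, against 1.55 and 0 RPKM in SMA white matter and 3.12 and 2.80 RPKM in WT white matter. The SMA groups overlapped, and the WT call was lost under 6 of 14 settings, without each of the 4 WT libraries included (limma adjusted p = 0.0965 to 0.125). Markers of other glia moved with region in the same way. Of 6 oligodendrocyte precursor markers, 6 were lower in motor neurons of SMA mice and 5 of WT mice, and of 6 astrocyte markers 5 in each. Their part in these values was not tested.

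Mir219-2 lies between genes. It had 0 and 0.250 RPKM in SMA motor neurons and 0.679 and 0 RPKM in WT motor neurons, against 16.1 and 19.5 RPKM in SMA white matter and 33.3 and 21.3 RPKM in WT white matter. The motor neuron libraries held 0 to 6 reads and the white matter libraries 151 to 281. The differences were −4.07 ± 0.39 in SMA and −4.42 ± 0.39 in WT (limma adjusted p = 0.000155 in SMA and 6.93e-05 in WT). White matter did not overlap between genotypes, but SMA against WT did not pass there (−0.56 ± 0.39, limma adjusted p = 0.762).

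Mir338 lies in an intron of the neuronal kinase gene Aatk, and Mir3065 lies opposite it on the other strand. Their hairpins overlap and no use of strand is given, so the reads of the pair cannot be told apart. Mir338 was at 0 in both SMA motor neuron libraries and had 0.224 and 0.527 RPKM in WT motor neurons, against 3.37 and 5.06 RPKM in SMA white matter and 6.81 and 4.64 RPKM in WT white matter. It was at least 11.3-fold lower in motor neurons of SMA mice, and the difference in WT mice was −2.28 ± 0.36 (limma adjusted p = 0.00143 in SMA and 0.00144 in WT). Aatk itself overlapped between regions, at 24.5 ± 4.08 RPKM in SMA motor neurons and 19.4 ± 4.19 RPKM in WT motor neurons, against 22.7 ± 11.0 RPKM in SMA white matter and 22.2 ± 10.4 RPKM in WT white matter (SD, n = 2 each). Over 8 libraries the correlation of Mir338 with Aatk was −0.0966, given as a description.

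The lowest p in both genotypes belonged to Mir1897, in an exon of Sox2ot, a non-coding RNA that spans the progenitor and glial gene Sox2. It had 2.17 and 3.84 RPKM in SMA motor neurons and 2.36 and 2.12 RPKM in WT motor neurons, against 73.1 and 86.6 RPKM in SMA white matter and 84.8 and 47.2 RPKM in WT white matter. The differences were −4.36 ± 0.35 in SMA and −4.31 ± 0.35 in WT (limma adjusted p = 7.17e-05 in SMA and 4.74e-05 in WT). Sox2ot differed in the same way, with 1.26 ± 0.129 RPKM in SMA motor neurons and 1.65 ± 0.598 RPKM in WT motor neurons, against 42.7 ± 8.67 RPKM in SMA white matter and 30.0 ± 3.77 RPKM in WT white matter (SD, n = 2 each).

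Mir675 lies in an exon of H19, an imprinted fetal RNA that is its precursor. It had 6.56 and 1.45 RPKM in SMA motor neurons and 3.40 and 3.69 RPKM in WT motor neurons, against 46.1 and 94.2 RPKM in SMA white matter and 30.1 and 29.3 RPKM in WT white matter. The differences were −3.96 ± 0.51 in SMA and −2.76 ± 0.51 in WT (limma adjusted p = 0.000624 in SMA and 0.00339 in WT). In white matter the SMA libraries lay above the WT libraries, but SMA against WT did not pass (1.13 ± 0.51, limma adjusted p = 0.741). Mir5129, in a coding exon of the transcription factor gene Zeb2, was lower in motor neurons in both genotypes, with −3.68 ± 0.72 in SMA and −3.35 ± 0.72 in WT. Mir546 was lower as well, with −2.60 ± 0.55 in SMA and −2.05 ± 0.55 in WT. Mir682 was lower with −1.24 ± 0.20 in SMA and −1.10 ± 0.20 in WT, and did not pass in a fit with no filter on low values (limma adjusted p = 0.0672 in SMA and 0.102 in WT). In WT, Mir5129 did not pass when replicate 1 of either region was left out (limma adjusted p = 0.0649 without the motor neuron library and 0.0531 without the white matter library). Mir546 did not pass there without WT motor neuron replicate 1 (0.172) or either WT white matter library (0.0713 and 0.121). In SMA, Mir546 did not pass without SMA white matter replicate 2 (limma adjusted p = 0.0591).

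Outside the named lists, Mir1903 was higher in motor neurons in both genotypes. It lies in the 5′ UTR of Nrp1, a semaphorin receptor, and had 16.4 and 23.1 RPKM in SMA motor neurons and 18.1 and 9.68 RPKM in WT motor neurons, against 2.97 and 6.08 RPKM in SMA white matter and 1.73 and 0.517 RPKM in WT white matter. Mir678, in the 3′ UTR of the arginine methyltransferase gene Prmt2, had 66.6 and 59.1 RPKM in SMA motor neurons and 65.8 and 41.5 RPKM in WT motor neurons, against 20.1 and 19.6 RPKM in SMA white matter and 22.6 and 14.3 RPKM in WT white matter. For both members every motor neuron library lay above every white matter library. Mir1903 did not pass in SMA without SMA white matter replicate 1 (limma adjusted p = 0.0937), nor Mir678 in WT without WT motor neuron replicate 1 (limma adjusted p = 0.0754) or WT white matter replicate 2 (limma adjusted p = 0.0595). Mir490, in an intron of the muscarinic receptor gene Chrm2, was called higher in WT, where motor neurons had 3.79 and 7.68 RPKM and both white matter libraries were at 0 (at least 14.7-fold higher, limma adjusted p = 0.00351). In SMA it had 0 and 1.30 RPKM in motor neurons and 0 and 0.810 RPKM in white matter. Mir705, in the 3′ UTR of Rab11fip5, had 7.47 and 17.6 RPKM in SMA motor neurons and 16.3 and 23.8 RPKM in WT motor neurons, against 4.79 and 12.5 RPKM in SMA white matter and 1.82 and 1.64 RPKM in WT white matter, and passed in WT (2.92 ± 0.49, limma adjusted p = 0.00198). For neither gene did the interaction pass (limma adjusted p = 0.883 for both). Mir5126, antisense to Dner, passed in SMA, at 2.61 ± 0.41 in SMA (limma adjusted p = 0.0016) and 1.20 ± 0.41 in WT (limma adjusted p = 0.0522). Mir5107, in a coding exon of Cd74, the invariant chain of antigen presentation, was called lower in SMA, at −3.16 ± 0.55 in SMA (limma adjusted p = 0.00277) and −1.10 ± 0.55 in WT (limma adjusted p = 0.165). Its white matter values were 12.4 and 10.7 RPKM in SMA and 3.79 and 1.64 RPKM in WT. Over 6 microglia markers, the summed level was 237 and 285 RPKM in SMA white matter and 182 and 163 RPKM in WT white matter, and its part in this value was not tested.

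**Figure D3:**
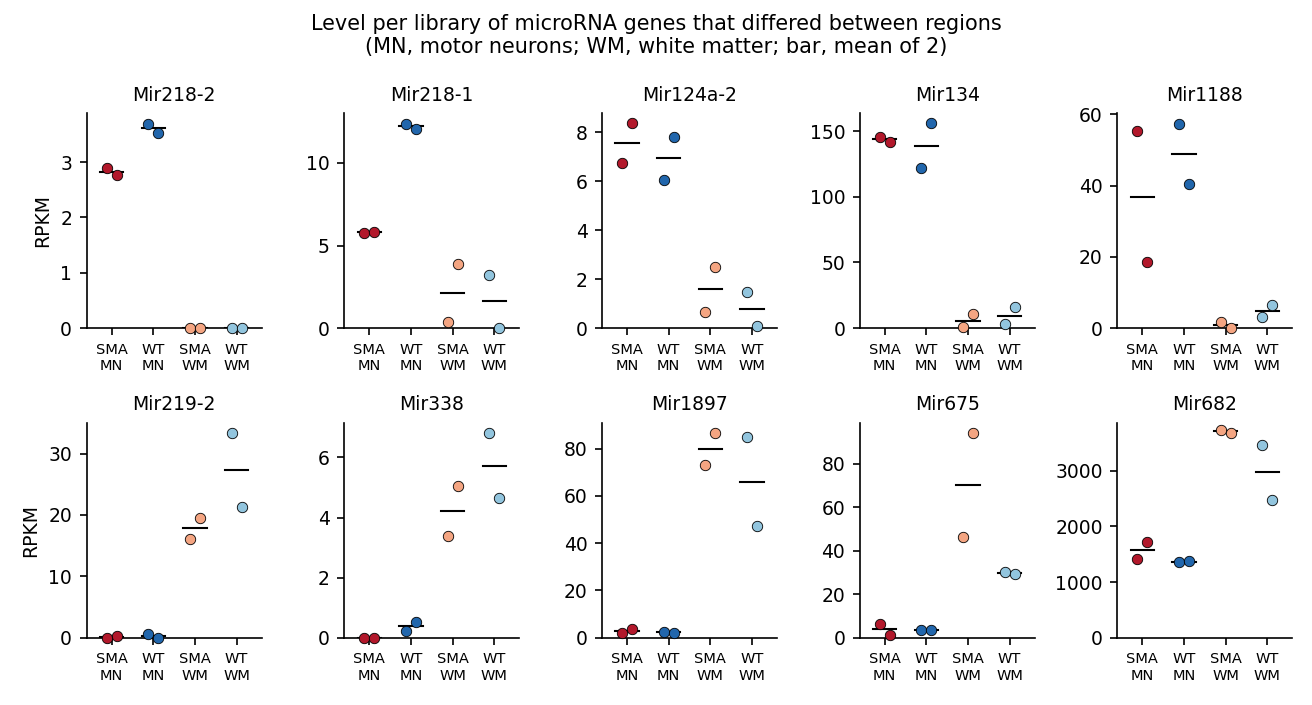
RPKM in each of 8 libraries (points; bar, mean of 2) for 5 members higher in motor neurons (upper row) and 5 higher in white matter (lower row), each panel with its own axis from 0. Mir218-2 is at 0 in all 4 white matter libraries, and Mir219-2 is at most 0.679 RPKM in motor neurons.

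The other lists were short, and each call in them was lost under at least 1 setting. Of the 9 let-7, miR-99, miR-100 and miR-125 members (timing genes of development), 1 was higher and 2 lower in motor neurons of SMA mice, and 0 were called in WT mice. That is 33.3% in SMA, against 30.8% of all genes. The 3 calls were Mir100, Mirlet7c-1 and Mirlet7e. Without SMA white matter replicate 2 none of the 3 passed (limma adjusted p = 0.0581, 0.0581 and 0.139), and without SMA white matter replicate 1 neither Mir100 nor Mirlet7c-1 did (limma adjusted p = 0.0746 and 0.0579). Mirlet7g had 17.5 RPKM in SMA white matter replicate 2 and 0.552 to 1.41 RPKM elsewhere. Of the 3 members in Hox clusters, Mir196b, in the annotated 5′ UTR of Hoxa9, was lower in SMA motor neurons, at 0.288 and 0.143 RPKM, against 6.20 and 12.8 RPKM in SMA white matter (not without SMA white matter replicate 2, limma adjusted p = 0.0663). In WT mice it had 1.81 and 10.3 RPKM in motor neurons and 4.47 and 10.2 RPKM in white matter, where it did not pass. Mir10b, in an intron of Hoxd4, had 39.8 RPKM in WT motor neuron replicate 2 and 1.67 to 8.36 RPKM elsewhere.

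A list of proliferation microRNAs, the miR-17 cluster and its relatives, had 4 members: Mir17, Mir19b-1 and Mir92-1 of the cluster, and Mir106b from another chromosome. Mir92-1 was lower in motor neurons of SMA mice, and 0 were called in WT mice. The Mir92-1 call (limma adjusted p = 0.0488) was lost under 10 of 14 settings, among them both other scalings, the replicate block, no filter and leaving out any of the 4 SMA libraries or either WT motor neuron library (limma adjusted p = 0.0511 to 0.168). Mir92-1 was at 0 in all 4 motor neuron libraries and had 3.88 and 3.65 RPKM in SMA white matter and 0.288 and 9.44 RPKM in WT white matter. Its host row Mir17hg, which also matched the symbol pattern though it is a host transcript, had at most 0.0470 RPKM in motor neurons and 0.512 to 2.03 RPKM in white matter. Of 6 dividing-cell markers, 6 were lower in motor neurons of SMA mice and 5 in WT mice. Among 3 blood and microglia members, Mir21 was higher in motor neurons of WT mice. It had 0.133 and 10.3 RPKM in SMA motor neurons and 7.16 and 21.9 RPKM in WT motor neurons, against 5.95 and 0.106 RPKM in SMA white matter and 0.250 and 0 RPKM in WT white matter, so its SMA libraries overlapped. Its WT call was lost with no filter and without any 1 of the 4 WT libraries (limma adjusted p = 0.0687 to 0.199). The muscle member Mir1a-2 had 24.2 RPKM in SMA white matter replicate 2, the library with the most muscle marker signal, and 1.19 to 3.68 RPKM elsewhere. It and the 2 p53 response members were not called in either genotype, and no endothelial or sensory-cluster gene reached the level threshold.

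Hairpins in exons had higher correlations with their hosts than hairpins in introns, a difference that was not tested. Of the members, 161 had a same-strand host gene in the tables (139 different hosts). For the 80 in an exon the median correlation of member and host over 8 libraries was 0.714, and 41 of them reached 0.7. For the 81 in an intron it was 0.300, and 8 reached 0.7. Intronic members also had fewer reads. Among members with a mean of at least 5 RPKM, the medians were 0.814 for 42 exonic and 0.542 for 9 intronic members. These correlations describe 8 libraries that fall into 2 regions, and members of one host share it.

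Examples of close pairs were Mir1897 with Sox2ot (0.988), Mir5121 with the ribosomal protein gene Rpl13a (0.983), Mir5114 with Scd2 (0.981) and, in an intron, Mir218-2 with Slit3 (0.951). Examples of pairs that ran apart were Mir677 in an intron of Atp5b (−0.833) and Mir1967 in an intron of Urb2 (−0.713). In the region comparison of SMA mice, 25 exonic members were called and 16 of their hosts were called in the same direction, and of 18 called intronic members 6 hosts were. In WT mice it was 18 of 26 for exonic and 7 of 12 for intronic members. With members called or not, the host was called in either direction for 27 of 80 exonic and 25 of 81 intronic members in SMA. In WT it was 30 of 80 and 22 of 81. Of all genes, 30.8% were called in SMA and 28.4% in WT. The host was called and the member not for 11 exonic and 18 intronic members in SMA, and 12 and 15 in WT. Among members with a mean of at least 5 RPKM the order was the other way: the host was called in the same direction for 13 of 18 exonic and 3 of 3 intronic members in SMA, and for 16 of 20 and 4 of 4 in WT. Opposite calls of member and host occurred 1 time, for Mir677 in SMA mice, which was lower in motor neurons (−1.62 ± 0.54) while Atp5b was higher (0.77). That Mir677 call did not hold under 10 of 14 settings, among them both other scalings, the replicate block, no filter and leaving out any of the 4 SMA libraries or either WT motor neuron library (limma adjusted p = 0.058 to 0.213).

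**Figure D4:**
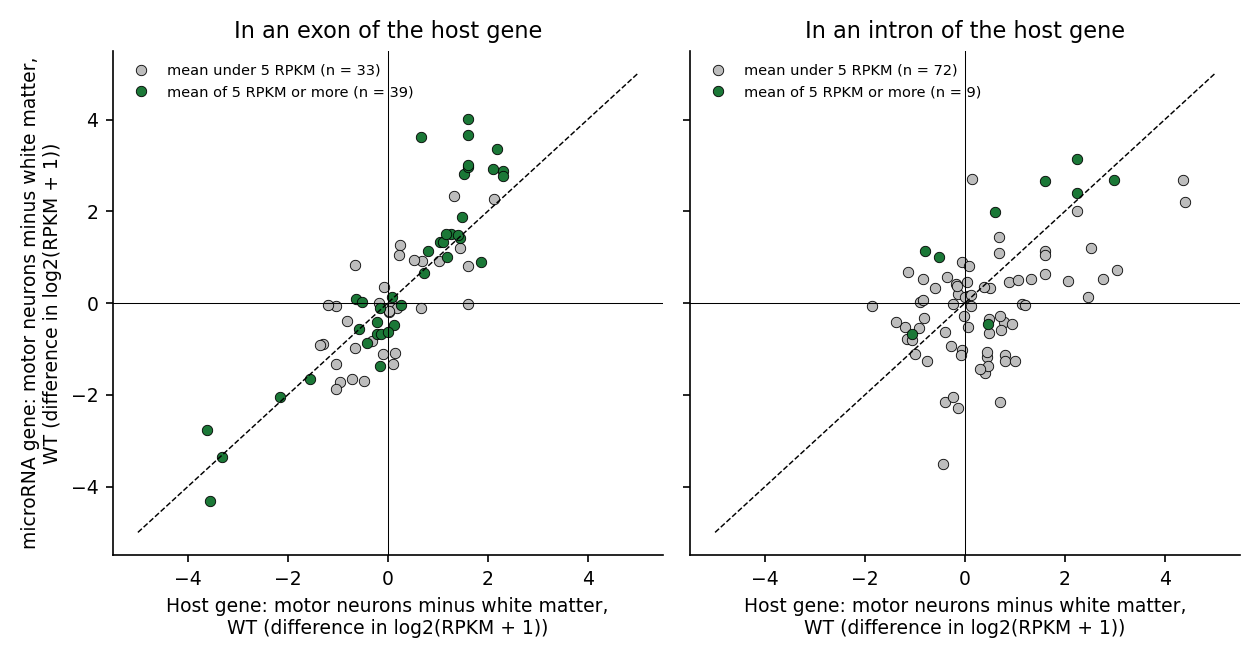
Motor neuron minus white matter difference in log2(RPKM + 1) in WT mice for each member (vertical) and its host gene (horizontal), with exonic members on the left and intronic on the right and a dashed line of equality. Points are coloured by mean level, not by call, and members whose host did not pass the level filter are not drawn. Drawn or not, 26 of 80 exonic and 12 of 81 intronic members were called in WT mice. Of their hosts, 18 and 7 were called in the same direction.

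For SMA against WT mice, no microRNA gene passed the test. Smn1, at 0 in all SMA libraries, did not pass either, so a gene that is not called here may still differ. In motor neurons 0 of 246 members were called (background 0.0%), and 30 had an unadjusted p under 0.05, 8 higher and 22 lower in SMA. In white matter 0 were called (background 0.0%), and 29 had an unadjusted p under 0.05, 15 higher and 14 lower. For the mean of both regions 0 were called, with 38 at an unadjusted p under 0.05. For the interaction, the SMA effect in motor neurons minus that in white matter, 0 were called, with 39. Over all genes the share at an unadjusted p under 0.05 was 4.37% in motor neurons, 6.31% in white matter, 5.99% for the mean and 4.97% for the interaction, and 0 genes were called in each. The median difference over all genes was −0.05 in motor neurons, 0.274 in white matter, 0.109 for the mean and −0.335 for the interaction on the log2(RPKM + 1) scale. After median-of-ratios scaling these medians were −0.02 in motor neurons, 0.001 in white matter, −0.01 for the mean and −0.03 for the interaction, and 0 members were called in each. Of the 30 members with an unadjusted p under 0.05 in motor neurons, 22 averaged under 5 RPKM and 12 were at 0 in 3 or more libraries. A gene could reach the level threshold through a single group, as Mir23b, Mir130a, Mir433 and Mir30c-2 did. Mir346 reached it through WT libraries alone. The differences of all these genes between genotypes are a description. The number of members at 0 was 83 and 63 in SMA motor neurons, against 44 and 49 in WT motor neurons. The matching count over all genes is not given here, so no result about the members is read from it. Of all genes, 12248 and 11539 reached 1 RPKM in SMA motor neurons and 12218 and 11983 in WT motor neurons, which overlapped. The number of members at 0 in white matter was 79 and 57 in SMA, against 41 and 60 in WT, where the genotypes overlapped.

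The members with the smallest p in motor neurons were Mir344-2 and Mir23b. Mir344-2, in an intron of A330076H08Rik, had 1.38 and 1.21 RPKM in SMA motor neurons and 15.5 and 16.9 RPKM in WT motor neurons. That is 9 and 8 reads in SMA against 113 and 105 reads in WT. In white matter it had 1.03 and 8.75 RPKM in SMA and 7.62 and 7.50 RPKM in WT, so the groups overlapped there. The difference in motor neurons was −2.91 ± 0.60 (limma adjusted p = 0.556). Mir23b had 2.15 and 7.71 RPKM in SMA motor neurons and was at 0 in both WT motor neuron libraries. Its SMA mean was at least 10.2-fold higher (limma adjusted p = 0.556). White matter had 0.559 and 0 RPKM in SMA and 0.466 and 0 RPKM in WT. Mir130a, between genes, had 1.53 and 1.33 RPKM in SMA motor neurons and was at 0 in WT motor neurons, with at most 0.180 RPKM in white matter (at least 2.55-fold higher in SMA motor neurons, limma adjusted p = 0.627).

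Members of the Dlk1-Dio3 region were among those with the smallest p, without passing. Mir433 had 0.197 and 0.196 RPKM in SMA motor neurons, which is 2 reads each, and 2.04 and 2.81 RPKM in WT motor neurons, and it was at 0 in all white matter libraries. Mir487b had 0.747 and 1.18 RPKM in SMA motor neurons and 3.88 and 8.50 RPKM in WT motor neurons, and was also at 0 in white matter. The difference in motor neurons was −1.51 ± 0.32 for Mir433 and −1.80 ± 0.39 for Mir487b (limma adjusted p = 0.556 for both). Across the 47 members of the region, the sign was negative for 31 and positive for 16 in SMA against WT motor neurons. Their median was −0.57 on the log2(RPKM + 1) scale. Among the 199 members elsewhere the sign was negative for 115 and positive for 76, with a median of −0.17. In white matter, members of the region were negative for 29 and positive for 12, with a median of −0.19. Members elsewhere were negative there for 89 and positive for 104, with a median of 0.06, and the median over all genes was 0.274. Genes of the region share transcripts, so these signs are not independent. Mirg differed by −0.33 ± 0.34 and Rian by −0.62 ± 0.33. Mir300 went the other way, with 38.6 and 15.7 RPKM in SMA motor neurons and 11.1 and 8.33 RPKM in WT motor neurons (1.27 ± 0.48, limma adjusted p = 1).

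In white matter, Mir30c-2 had 1.60 and 4.05 RPKM in SMA and was at 0 in WT and in all motor neuron libraries (at least 7.24-fold higher in SMA, limma adjusted p = 0.634). Mir339 had 0.215 and 0.506 RPKM in SMA white matter and 4.67 and 22.0 RPKM in WT white matter (−3.08 ± 0.68, limma adjusted p = 0.727). Mir346 was at 0 in all 4 SMA libraries and had 2.94 and 3.90 RPKM in WT white matter and 2.35 and 0 RPKM in WT motor neurons. For Mir346, white matter was at least 11.1-fold lower in SMA (limma adjusted p = 0.727).

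Mir99a, Mir5134 and Mir3076 had higher values in the SMA libraries of both regions and did not pass. Mir99a shares the seed ACCCGUA with Mir100. It had 9.98 and 3.92 RPKM in SMA motor neurons and 2.20 and 1.98 RPKM in WT motor neurons, and 10.2 and 20.04 RPKM in SMA white matter and 3.19 and 4.77 RPKM in WT white matter. Its mean difference over both regions was 1.45 ± 0.33 (limma adjusted p = 0.665). Mir5134, in a coding exon of the cyclin gene Ccnf, had 2.35 and 4.67 RPKM in SMA motor neurons and 0 and 0.992 RPKM in WT motor neurons, and 14.8 and 8.35 RPKM in SMA white matter and 3.84 and 3.45 RPKM in WT white matter. Its mean difference was 1.51 ± 0.32 (limma adjusted p = 0.612). Mir3076, in a coding exon of the transketolase gene Tkt, had 62.4 and 96.1 RPKM in SMA motor neurons and 51.6 and 48.8 RPKM in WT motor neurons, and 57.5 and 35.8 RPKM in SMA white matter and 24.4 and 20.5 RPKM in WT white matter. The SMA libraries lay above the WT libraries in both regions, by 0.80 ± 0.22 in the mean (limma adjusted p = 0.761).

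Mir100 had the smallest p for the interaction. It had 7.35 and 1.82 RPKM in SMA motor neurons and 0 and 0.323 RPKM in WT motor neurons, but 0 and 0.122 RPKM in SMA white matter and 0.719 and 2.20 RPKM in WT white matter. The SMA values lay above WT in motor neurons and below WT in white matter, with 3.22 ± 0.75 as a difference of differences (limma adjusted p = 0.883). Mirlet7e showed the reverse, with 0 in both SMA motor neuron libraries and 3.19 and 1.25 RPKM in WT motor neurons, against 1.22 and 4.18 RPKM in SMA white matter and 0.990 and 0.556 RPKM in WT white matter (−2.57 ± 0.67, limma adjusted p = 0.883).

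Markers of other cells had different sums by genotype in motor neurons. The summed level of 6 microglia markers was 56.0 and 53.2 RPKM in SMA motor neurons and 17.7 and 20.2 RPKM in WT motor neurons, none at 0 in all motor neuron libraries, and that of the oligodendrocyte markers was higher in SMA as given above. None of these 12 markers passed for SMA against WT in motor neurons. Their part in the microRNA values was not tested. One library weighed on the genotype results. Without SMA motor neuron replicate 1, 3 members were called in motor neurons: Mir23b (3.12), Mir199a-2 (2.38) and Mir5113 (−3.24), with limma adjusted p = 0.0277, 0.0334 and 0.00309. The SMA arm then held 1 library, assumed to vary like the other groups. For Mir5113, in the 3′ UTR of the Argonaute partner gene Tnrc6b, the 2 SMA motor neuron libraries had 24.3 and 1.33 RPKM, against 25.2 and 17.5 RPKM in WT motor neurons. For Mir199a-2, they had 0.111 and 4.19 RPKM, against 0 in both WT motor neuron libraries.

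**Figure D5:**
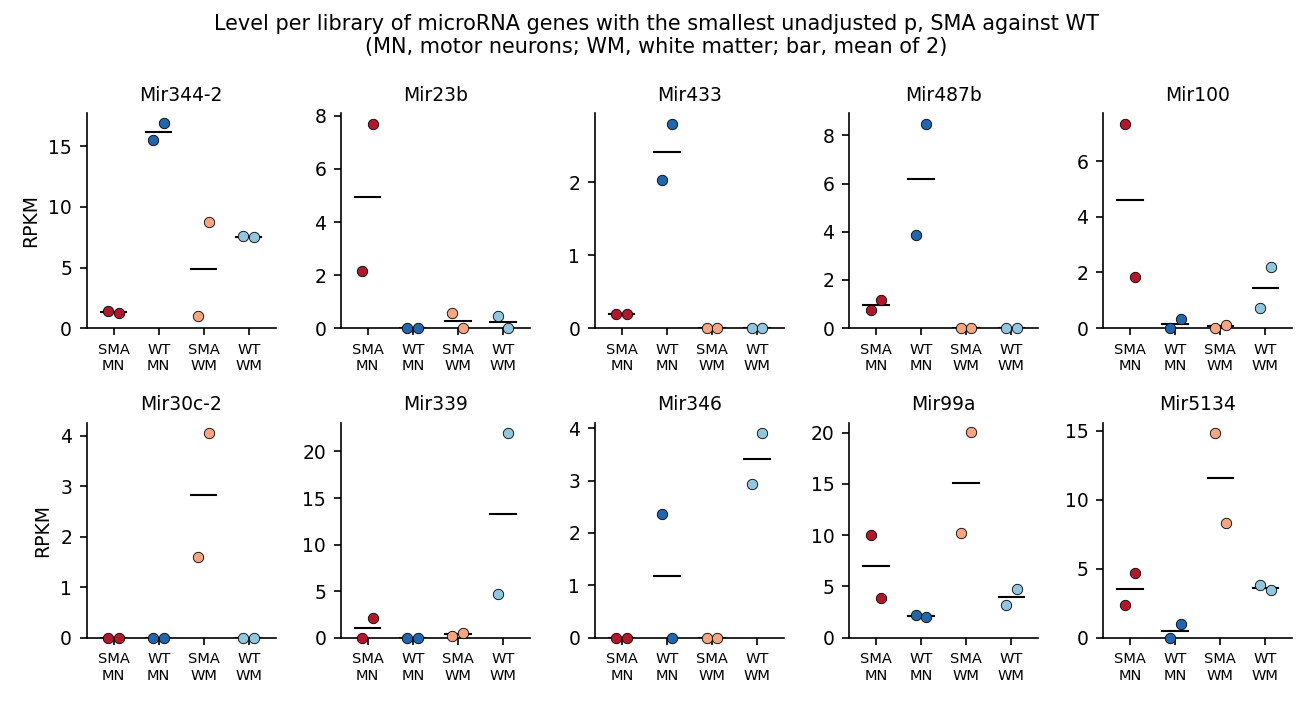
RPKM in each of 8 libraries (points; bar, mean of 2) for 10 members with the smallest unadjusted p in a comparison of SMA with WT, none of which passed after adjustment. Mir344-2 is at 1.38 and 1.21 RPKM in SMA motor neurons and at 15.5 and 16.9 RPKM in WT motor neurons.

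The genes that make and use microRNAs were measured with more reads. Of 40 such genes in the tables, 37 passed the level filter, and 0 were called for SMA against WT in either region, for the mean or for the interaction. The same held for all genes tested, Smn1 included. Drosha, the nuclear enzyme that frees the hairpin, had 17.6 and 19.0 RPKM in SMA motor neurons and 15.9 and 13.0 RPKM in WT motor neurons. Dicer1 had 16.1 and 8.52 RPKM in SMA motor neurons and 14.4 and 15.1 RPKM in WT motor neurons. The groups overlapped for Dicer1, and for Drosha the SMA values lay just above those of WT. Gemin4 and Ddx20, partners of both the SMN complex and Argonaute, had 1.65 to 2.24 RPKM and 1.68 to 3.08 RPKM in SMA motor neurons, against 1.28 to 2.57 RPKM and 3.84 to 4.38 RPKM in WT motor neurons.

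Between regions, 8 of the 37 were called in SMA mice (2 higher and 6 lower in motor neurons) and 7 in WT mice (5 higher and 2 lower). That is 21.6% in SMA and 18.9% in WT, below the 30.8% and 28.4% of all genes. Of the 4 Argonaute genes, Eif2c2 ran the other way from the rest. Eif2c4 (Argonaute 4), with a mean of 0.981 RPKM, was lower in motor neurons without passing. Its differences were −0.77 ± 0.33 in SMA and −0.32 ± 0.33 in WT (limma adjusted p = 0.106 in SMA and 0.52 in WT). Eif2c3 (Argonaute 3) had 1.57 and 0.836 RPKM in SMA motor neurons and 1.68 and 1.41 RPKM in WT motor neurons, against 7.98 and 5.45 RPKM in SMA white matter and 7.68 and 7.21 RPKM in WT white matter, and was lower in motor neurons in both genotypes (limma adjusted p = 0.00466 in SMA and 0.00533 in WT). Eif2c1 (Argonaute 1) was also lower in both, but its call was lost in SMA without either SMA white matter library (limma adjusted p = 0.105 and 0.0963) and in WT without any 1 of the 4 WT libraries (limma adjusted p = 0.0616 to 0.162). Eif2c2 (Argonaute 2, the slicing member) had 26.7 and 20.4 RPKM in SMA motor neurons and 28.7 and 27.0 RPKM in WT motor neurons, against 15.2 and 10.6 RPKM in SMA white matter and 10.6 and 9.07 RPKM in WT white matter. It was higher in motor neurons in WT and missed the threshold in SMA (limma adjusted p = 0.0547), and in WT it did not pass with WT motor neuron replicate 1 left out (limma adjusted p = 0.0535). The chaperone genes Hsp90aa1 and Hspa8, which load Argonaute, were higher in motor neurons in both genotypes, and Dicer1, Ddx17, Fmr1 and Pan3 were called lower in SMA mice. None of these last 4 passed without SMA white matter replicate 1 (limma adjusted p = 0.124, 0.0674, 0.238 and 0.072) or SMA white matter replicate 2 (limma adjusted p = 0.116, 0.201, 0.0754 and 0.101), and only Pan3 among them kept its call without SMA motor neuron replicate 2.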

How the data were processed

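RNA-seq was measured in 8 libraries, 2 in each of 4 groups taken from the labels. The authors deposited 1 table of RPKM values per library, with gene symbols and no counts. The submitters' processing notes name build mm9, DESeq, bedtools and TopHat. Not given in the sources used here are the versions, the counting rule, any use of strand and what became of multiply matching reads.

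Members and gene lists were chosen with earlier results of these data known. Reads per gene were worked out from the steps of the RPKM values and the hairpin lengths, and 98.8% of 1683 values above 0 came out whole within 0.02 reads. Reads serve only as a description. A floor of 3 reads per library, used where a group was at 0, covers counting error only. Folds given as at least divide the mean of the other group by this floor. They do not bound the fold of its lower library.

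The test was limma 3.58.1 in R 4.3.3 on log2(RPKM + 1), with 4 group means, a mean-variance trend, all 8 libraries and Benjamini-Hochberg adjustment over the 13948 genes with at least 1 RPKM in at least 2 libraries. It was tested on simulated data. Tables and plots used Python 3.11.15, pandas 2.3.3, numpy 2.4.6 and matplotlib 3.10.9. Position and host gene came from the GENCODE annotation and sequences from RefSeq, both of a later build than the files, so no coordinates are given. Alternatives were the pseudocount (0.1 RPKM), no level filter, 2 other scalings, the compared libraries alone, a replicate block and leaving out each library.

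Genes named with values were taken from the 10 highest, up to 8 per direction and region comparison by p, the 3 with the smallest p per direction in each SMA comparison, up to 4 per list, and their hosts. Not every gene of these sets is named: Mir1895, Mir3097 and Mir341 are among those left out. Other members named, among them Mir5121, Mir677, Mir9-2, Mir5113 and Mir21, were chosen after their values were seen.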

Additional observations from a re-analysis of the deposited data

How the results depend on the processing

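The counts of members called between regions depended on the libraries and the filter. In WT mice 63 members were called as reported. It was 96 with a fit on the compared libraries alone, 40 with no filter on low values, 55 to 69 under the other settings, and 34 to 89 when 1 library was left out, with the fewest without WT white matter replicate 2 and 37 without WT motor neuron replicate 2. In SMA mice 63 were called as reported, 42 to 68 under other settings, and 38 to 91 when 1 library was left out, with the fewest without SMA white matter replicate 2 and the most without SMA motor neuron replicate 1. For SMA against WT in motor neurons, leaving out 1 library gave 0 to 3 members. For the interaction it gave 0 to 2, which were Mir199a-2 and Mir5113 without SMA motor neuron replicate 1. For SMA against WT in white matter and for the mean, 0 members were called under every setting tried. Over all genes, 4295 were called between regions in SMA, 2415 with the compared libraries alone and 2272 to 5539 when 1 library was left out, and 3967 in WT, with 2015 to 5333 when 1 was left out. For SMA against WT over all genes, leaving out 1 library gave 0 to 123 in motor neurons, 0 to 1 in white matter, 0 to 8 for the mean and 0 to 17 for the interaction, against 0 as reported, and the other settings gave at most 3. The fit on compared libraries could not be made for the mean and the interaction. A threshold of 5 RPKM kept 105 of 246 members. A gene on the opposite strand was in the tables for 35 members, against 161 with a same-strand host, and the median correlation was 0.387 against 0.499. Of 2088 alternative values for 150 results on single members (every call between regions, and the members with the smallest p for SMA against WT), 1762 kept their direction and side of the threshold, 324 lost the call, 2 gained it and 0 reversed. Of the 324, 214 came from leaving out 1 library. Calls lost per setting among the 63 in SMA and the 63 in WT were 21 and 24 with no filter, 6 and 13 with the other pseudocount, 6 and 6 with median-of-ratios scaling, 7 and 4 with quantile normalization, 13 and 0 with the compared libraries alone and 4 and 6 with the replicate block. The cause was not tested.

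For pairing, same-numbered libraries share a high or low Xist level in all 4 groups, but their deviations over all genes did not go together: the correlation between same-numbered libraries of 2 groups was −0.343 to 0.080, so the fit as reported has no block. With the replicate number as a block, which then also stands for the Xist difference, 62 members were called between regions in SMA, 61 in WT and 0 in the 4 comparisons with SMA. The calls lost were those of Mir92-1, Mir667, Mir677 and Mir1192 in SMA and of Mir1224, Mir1894, Mir1906-1, Mir1906-2, Mir207 and Mir495 in WT (limma adjusted p = 0.0511 to 0.0688). Depth limits the rest: the median member had 11 reads in a library, and values under about 3 reads cannot be told from 0.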
